A study of Mus musculus with 4 samples.

Results

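Polycomb repressive complex 1 (PRC1) was followed through the mRNAs of 9 of its subunits in mouse male germ cells, out of 36088 genes in the deposited table. The 9 genes were taken by symbol, 1 row per gene and library: Ring1 and Rnf2, which encode the catalytic RING subunits, Bmi1 and Pcgf6 of the PCGF family, the chromodomain proteins Cbx2, Cbx7 and Cbx8, and the SCM proteins Scmh1 and Scml2. All 9 had a mean of at least 1 TPM (an abundance relative to the library total that corrects for transcript length) and were among the 14920 genes tested. The cells were wild type and had been sorted from fetal testes kept in culture, and the sample titles give day 14. The groups were 2 libraries from cultures with CBR-5884, known as an inhibitor of the serine synthesis enzyme Phgdh, and 2 libraries from cultures with its solvent DMSO. The libraries carry the numbers 2 and 4 in the deposited table.

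PRC1 places 1 ubiquitin on histone H2A and compacts chromatin, which keeps developmental genes silent. Each complex holds a RING subunit and 1 PCGF subunit, and the PCGF subunit decides which partners join. Complexes with a CBX protein, a PHC protein and an SCM protein are called canonical, because the CBX chromodomain reads the methylated histone H3 made by PRC2. Complexes with Rybp or Yaf2 in place of CBX are called variant. In the male germ line of mice, Scml2 is a germline-enriched subunit known for silencing somatic genes, and in female fetal germ cells Rnf2 is known for holding back meiotic genes.

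The deposited values summed to 966761 to 1002976 TPM per library. The 6 germ cell markers Ddx4, Dazl, Mael, Tex101, Dnd1 and Rhox13 were abundant, with a summed level of 2049 and 2050 TPM in CBR-5884 libraries and 2020 and 2031 TPM in DMSO libraries. Markers of Sertoli cells, the supporting cells of the testis, summed over 6 genes to 93.2 TPM in CBR-5884 library 2, 77.1 TPM in CBR-5884 library 4, 110.9 TPM in DMSO library 2 and 60.7 TPM in DMSO library 4, so the DMSO libraries lay on both sides of the CBR-5884 libraries. The sums stayed at or below 12.7 TPM for macrophage (3 genes), endothelial (3), peritubular (3) and Leydig (5) markers, and 3 globin genes were listed at 0. The part of these other cells in the values below was not tested. In RNA from a cell population, fewer cells of a type and less RNA per cell cannot be told apart.

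The promoters of 8 of the 9 genes were found in RefSeq (GRCm38.p6), as windows of 250 bases before to 50 bases after a start, with 2 windows for Scmh1. Chromatin was not analysed here, so the sequences describe the genes and carry no measurement. Those of Scml2 (the most abundant member), Bmi1 (the member with the largest difference between conditions) and Cbx8 are given 5′ to 3′, with capitals for CACGTG, the E-box bound by Max with partners such as Mga.
Scml2, chrX:161162500-161162799, plus strand: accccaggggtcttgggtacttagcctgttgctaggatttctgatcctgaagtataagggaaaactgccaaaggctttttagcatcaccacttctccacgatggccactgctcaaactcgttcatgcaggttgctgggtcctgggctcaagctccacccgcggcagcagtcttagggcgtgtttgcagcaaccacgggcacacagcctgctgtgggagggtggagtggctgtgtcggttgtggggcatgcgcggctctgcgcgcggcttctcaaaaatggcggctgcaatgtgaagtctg
Bmi1, chr2:18676768-18677067, plus strand: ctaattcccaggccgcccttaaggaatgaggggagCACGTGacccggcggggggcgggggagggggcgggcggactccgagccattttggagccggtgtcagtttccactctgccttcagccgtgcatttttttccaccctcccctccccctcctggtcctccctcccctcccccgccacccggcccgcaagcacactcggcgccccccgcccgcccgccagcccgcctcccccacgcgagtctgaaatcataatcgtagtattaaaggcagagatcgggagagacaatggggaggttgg
Cbx8, chr11:119040864-119041163, minus strand: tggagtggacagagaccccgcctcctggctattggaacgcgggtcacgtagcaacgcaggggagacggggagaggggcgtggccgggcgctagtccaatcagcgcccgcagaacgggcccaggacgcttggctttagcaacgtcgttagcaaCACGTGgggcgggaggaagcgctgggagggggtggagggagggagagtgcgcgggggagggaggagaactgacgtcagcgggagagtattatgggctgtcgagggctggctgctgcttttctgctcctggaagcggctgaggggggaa
The windows of Bmi1 and Cbx8 held 1 CACGTG each, which began 215 and 98 bases before the start, and the other 7 windows held none. Of all 32851 windows in the table, 7.15% held it. The E2F core GCGGGAA, searched on both strands, was in 1 of the 9 windows, at Scmh1, and in 4.6% of all windows. The windows ranged from 0 to 54 CpG dinucleotides, with a median of 24 against 7 over all windows. Bmi1 and Cbx8 had 23 and 24, while the Scml2 window had 13 and was thus the lowest apart from 1 of the Scmh1 windows, which had 0. The Scml2 window lies at a RefSeq start inside the gene as placed by GENCODE M21, which begins at 161117193. The sequence at that GENCODE start was not examined.

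Scml2 was the most abundant PRC1 member by a wide margin, and Ring1 the least. Scml2, on chromosome X from 161117193 to 161258213 (GRCm38, GENCODE M21), had 349.9 and 332.2 TPM in CBR-5884 libraries and 351.6 and 325.4 TPM in DMSO libraries, which placed its mean at the 97.1th percentile of the genes tested. Its mean over the 4 libraries, 339.8 TPM, was 2.59-fold that of Bmi1, the next in order. After Bmi1 (mean 131 TPM) came Rnf2 (101 TPM), Cbx2 (66.8 TPM), Scmh1 (60.1 TPM), Pcgf6 (41.2 TPM), Cbx8 (30.4 TPM), Cbx7 (24.6 TPM) and Ring1 (21.0 TPM). The ranges of neighbours in this order did not overlap, except those of Cbx7 (22.8 to 27.3 TPM) and Ring1 (19.0 to 24.15 TPM). Even there Cbx7 was above Ring1 in each of the 4 libraries.

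**Figure D1:**
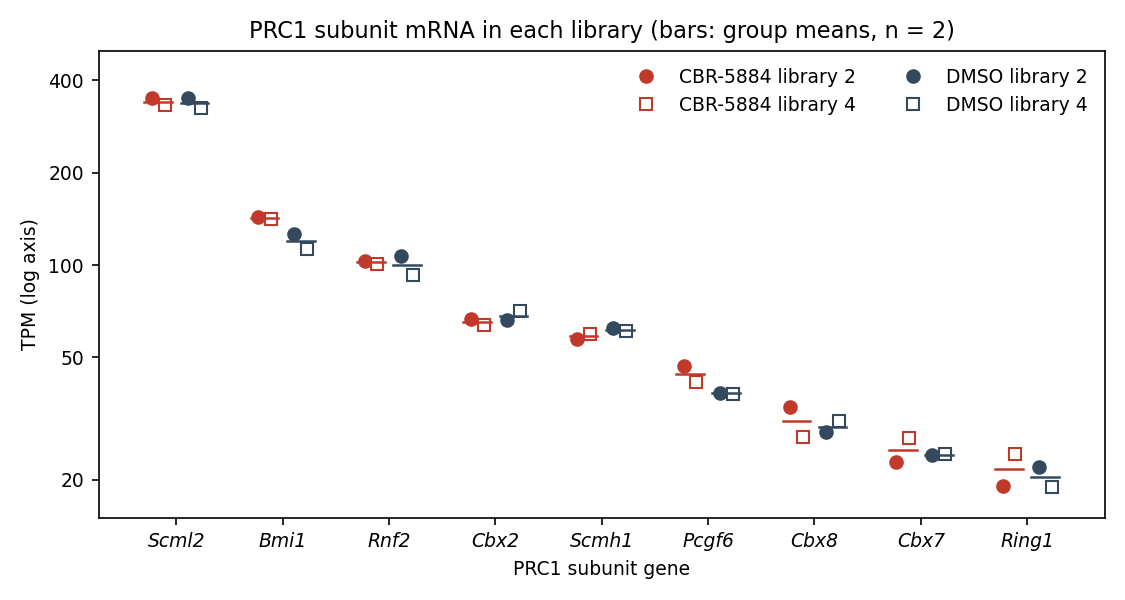
TPM on a log axis of the 9 PRC1 subunit genes, ordered by mean level, in each CBR-5884 library (red) and DMSO library (dark blue), with short bars for group means (n = 2 each). Scml2 lies between 325.4 and 351.6 TPM in all 4 libraries, above every other member, and Ring1 lies lowest at 19.0 to 24.15 TPM.

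Between the conditions the PRC1 mRNAs differed little. Of the 9 members 0 passed a limma adjusted p under 0.05, against 0% of all 14920 genes. Bmi1 was the 1 member at an unadjusted p under 0.05, against 3.66% of all genes. The CBR-5884 and DMSO libraries did not overlap for 3 of the 9 members (Bmi1 and Pcgf6 higher, Scmh1 lower with CBR-5884), against 31.3% of all genes, which is close to the members' own share. Both figures use the deposited TPM, and with equal library totals the Scmh1 groups overlap. The log2 fold changes, on the scale of TPM + 1, ran from −0.07 to 0.26 with a median of 0.05, and 7 were positive and 2 negative. Without DMSO library 4 the median of the members was −0.02, with 4 positive and 5 negative. Over all genes the median was −0.01. The highest library stood a median of 1.2-fold above the lowest for the members, and 1.17-fold for the 7092 genes in the same range of levels. An exact permutation test of 2 against 2 libraries cannot go below p = 0.33, and the tests therefore rest on limma, which pools the spread over genes.

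The catalytic subunits were close between the conditions, with Rnf2 far above its paralog Ring1 in every library. Rnf2, also called Ring1B and the main H2A ubiquitin ligase in mouse embryonic stem cells (chromosome 1, 151458004 to 151500955), had 103 and 101 TPM with CBR-5884, and 107 and 93.0 TPM with DMSO. The DMSO libraries lay above and below both CBR-5884 libraries. The Sertoli cell sums had the same order of libraries, and so did Scml2 and, of the 6 germ cell markers, only Ddx4. The summed germ cell markers had another order, at 2050 and 2049 TPM with CBR-5884 and 2031 and 2020 TPM with DMSO. The Sertoli cell marker Gata4 also departed from it, being highest in DMSO library 4 at 11.69 TPM. Ddx4 had 364.8 and 358.7 TPM with CBR-5884 and 369.3 and 331.7 TPM with DMSO. A link between these values was not tested. The log2 fold change was 0.03, with a 95% interval from −0.19 to 0.26 (limma adjusted p = 0.998). Ring1 (chromosome 17, 34020792 to 34024680) had 19.0 and 24.15 TPM with CBR-5884 and 21.9 and 19.0 TPM with DMSO, again with overlapping groups. Its interval was wider, from −0.33 to 0.46 around 0.07, with an upper end that corresponds to 1.38-fold. Rnf2 made up 84.4 and 80.7% of the summed TPM of both genes with CBR-5884, and 82.9 and 83.1% with DMSO.

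The PCGF subunits held the largest differences among the members. Bmi1, also known as Pcgf4, a subunit of canonical PRC1 known for stem cell maintenance and for repressing the Cdkn2a locus (chromosome 2, 18677018 to 18686629), had 144 and 141 TPM in CBR-5884 libraries and 126 and 113 TPM in DMSO libraries. Both CBR-5884 values were above both DMSO values. The log2 fold change was 0.26 (SE 0.09), or 1.19-fold, with a 95% interval from 0.05 to 0.46. Its limma adjusted p was 0.998, so the difference did not pass the threshold over all genes. The fits that left out 1 library gave 0.18 to 0.33, the ends being those without DMSO library 4 and without DMSO library 2. Of the 31-base words of Bmi1, 27.5% also occur in Gm5946, but that gene had only 0.02 to 0.15 TPM, and the sum of both stayed at 144 and 141.3 TPM with CBR-5884 against 126.1 and 113.1 TPM with DMSO.

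Pcgf6, the PCGF subunit of the variant complex PRC1.6, which silences germ cell genes in mouse embryonic stem cells (chromosome 19, 47033617 to 47050906), had 46.8 and 41.6 TPM with CBR-5884 and 38.4 and 38.0 TPM with DMSO. The groups did not overlap, and the DMSO libraries lay close together. The log2 fold change was 0.20 (SE 0.10; interval −0.05 to 0.46; limma adjusted p = 0.998), and it was 0.12 without CBR-5884 library 2. Of the summed TPM of the 6 PCGF genes, Bmi1 took 24.0 and 24.7% with CBR-5884 against 22.5 and 19.4% with DMSO. Pcgf6 took 7.80 and 7.28% with CBR-5884 against 6.86 and 6.54% with DMSO. Pcgf5, a subunit of variant PRC1, held the largest share, at 39.9 and 38.2% with CBR-5884 and 37.9 and 40.8% with DMSO. Pcgf3, its close relative, took 12.6 and 14.9% with CBR-5884 and 16.0 and 17.6% with DMSO, also without overlap. The summed level of the pool was 599.7 and 572.1 TPM with CBR-5884 and 560.2 and 581.5 TPM with DMSO, so the groups overlapped in their totals.

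**Figure D2:**
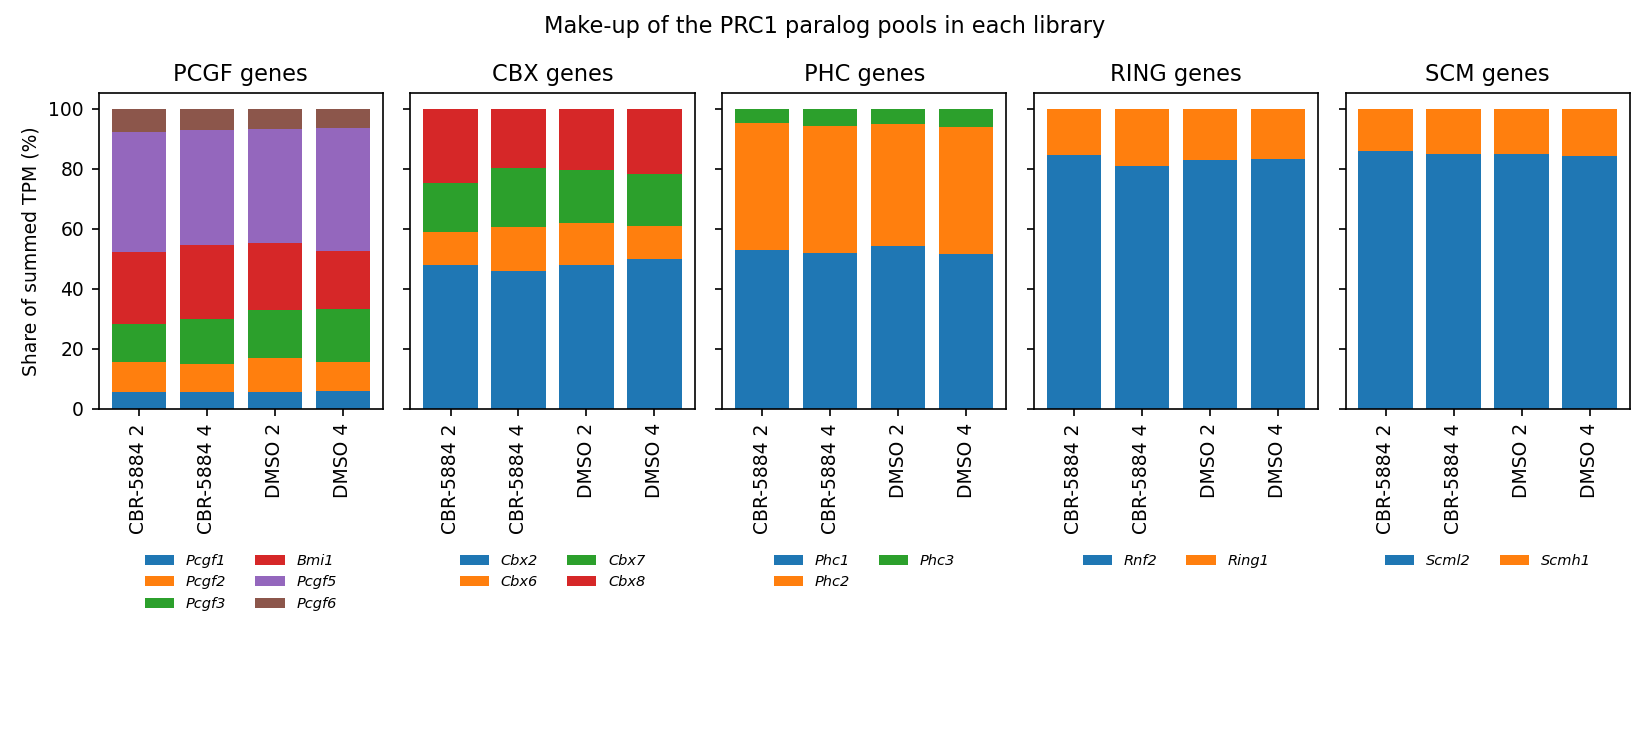
Share in percent of the summed TPM that each gene takes within the PCGF, CBX, PHC, RING and SCM genes, 1 bar per library with CBR-5884 libraries left of DMSO libraries. Rnf2 takes 80.7 to 84.4% of the RING sum and Scml2 84.3 to 85.9% of the SCM sum in all 4 libraries, and the Bmi1 share is 24.0 and 24.7% with CBR-5884 against 22.5 and 19.4% with DMSO.

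The CBX readers bind trimethylated histone H3 and bring canonical PRC1 to PRC2 targets. Of the 3 CBX members Cbx2 was the most abundant in these cells. Cbx2, whose loss in mice causes male-to-female sex reversal and which also compacts chromatin (chromosome 11, 119022962 to 119031270), had 66.6 and 63.8 TPM with CBR-5884 and 66.2 and 70.6 TPM with DMSO. The groups overlapped, and the log2 fold change was −0.07 (interval −0.28 to 0.14; limma adjusted p = 0.998). Leaving out DMSO library 4 gave −0.022 and leaving out DMSO library 2 gave −0.11. Cbx8 (119036305 to 119040969) lies 5.03 kb from Cbx2 on the same chromosome with no coding gene between, and had 34.5 and 27.5 TPM with CBR-5884 and 28.5 and 31.03 TPM with DMSO. The CBR-5884 libraries were its highest and lowest. Cbx7, the main Polycomb CBX protein of mouse embryonic stem cells (chromosome 15, 79915807 to 79971119), had 22.8 and 27.3 TPM with CBR-5884 and 24.0 and 24.2 TPM with DMSO, with the CBR-5884 libraries again at both ends. The intervals of Cbx8 and Cbx7 reached from −0.30 to 0.39 and from −0.28 to 0.37, and both had a limma adjusted p of 0.998. Of the summed TPM of the 4 genes Cbx2, Cbx6, Cbx7 and Cbx8, Cbx2 made up 47.8 and 46.0% with CBR-5884, and 47.9 and 49.95% with DMSO. Cbx8 took 24.8 and 19.8% with CBR-5884 and 20.6 and 22.0% with DMSO, and Cbx7 took 16.4 and 19.7% with CBR-5884 and 17.4 and 17.1% with DMSO.

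Scml2 had the narrowest interval of the 9 members. Its log2 fold change was 0.01 (SE 0.08; interval −0.18 to 0.20; limma adjusted p = 0.998), which bounds the ratio of CBR-5884 to DMSO between 0.88 and 1.15. In both conditions library 2 was above library 4, and none of its 31-base words occurs in another gene. Scmh1, a widely expressed relative of Scml2 that is also found in canonical PRC1 (chromosome 4, 120405281 to 120530186), had 57.5 and 59.9 TPM with CBR-5884 and 62.3 and 60.8 TPM with DMSO. Both CBR-5884 values were below both DMSO values in the deposited TPM, by a small step that depends on the scaling. The library totals were 966761 TPM in CBR-5884 library 4 and 998739 TPM in DMSO library 4. With equal library totals the Scmh1 groups overlap. The log2 fold change was −0.07 (interval −0.28 to 0.14; limma adjusted p = 0.998), and in the fits that left out 1 library it ran from −0.10 to −0.04. Scml2 took 85.9 and 84.7% of the summed TPM of both SCM genes with CBR-5884 and 84.9 and 84.3% with DMSO.

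**Figure D3:**
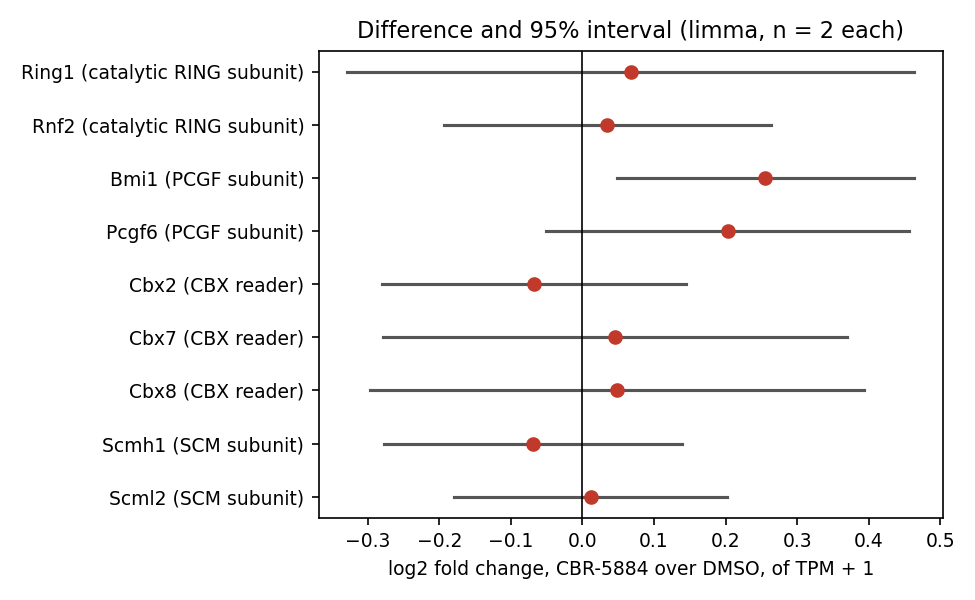
Log2 fold change of TPM + 1, CBR-5884 over DMSO, of each member with its 95% interval from limma (n = 2 each), grouped by role. The interval of Bmi1, 0.05 to 0.46, lies above 0, the other 8 include 0, and 0 of the 9 passed the threshold after adjustment over all genes.

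Other PRC1 genes also differed by small amounts. Among 31 further subunits and partners, all tested, 0 passed an adjusted p under 0.05, against 0% of all genes, and 0 had an unadjusted p under 0.05, against 3.66% (limma). Their log2 fold changes were positive for 10 and negative for 21, with a median of −0.02, against 52.8% negative over all genes. With equal library totals 16 were positive and 15 negative, so the split depends on the scaling. The CBR-5884 values lay below the DMSO values without overlap for 10 of the 31, against 17.7% of all genes, and above for 1, E2f6, against 13.6%. These counts use the deposited TPM, whose total was lowest in CBR-5884 library 4. With equal library totals fewer than 10 lie below without overlap, and the share of all genes at equal totals was not computed. The counts are a description of this list, whose members share complexes.

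Hdac1, Rybp and Pcgf3 had the smallest p of these partners. Hdac1, a histone deacetylase found in PRC1.6, had 179 and 176 TPM with CBR-5884 and 193 and 211 TPM with DMSO (log2 fold change −0.19; limma adjusted p = 0.998). Its level is uncertain, as 40% of its 31-base words occur in other genes. Rybp, which takes the place of CBX in variant PRC1, had 96.7 and 93.3 TPM with CBR-5884 against 104.5 and 113.3 TPM with DMSO. Pcgf3 had 75.8 and 85.3 TPM with CBR-5884 and 89.5 and 102.1 TPM with DMSO (log2 fold change −0.25, interval −0.50 to 0.01), and leaving out CBR-5884 library 2 gave −0.16 and leaving out DMSO library 4 gave −0.15. All 3 were lower in both CBR-5884 libraries than in both DMSO libraries. The most abundant partners were Skp1, a subunit of PRC1.1 and of SCF ubiquitin ligases, at 633 and 515 TPM with CBR-5884 and 590.5 and 541 TPM with DMSO, and Cbx3, the HP1 protein found in PRC1.6, at 448 and 394 TPM with CBR-5884 and 438.5 and 396 TPM with DMSO. The summed level of the PHC genes, which polymerise canonical PRC1, was 195.1 and 196.3 TPM with CBR-5884 and 203.8 and 206.9 TPM with DMSO, made up mostly of Phc1 and Phc2.

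Genes for enzymes that take the PRC1 mark off again, and for cofactors of these enzymes (Asxl1, Asxl2 and Asxl3), were also measured. Of 8 genes for H2A deubiquitination 0 passed the threshold, against 0% of all genes. The fold change was positive for 3 and negative for 5, against 52.8% negative over all genes. Their median was −0.02, against −0.01 over all genes. The split was 4 and 4 with equal library totals, 5 positive and 3 negative without DMSO library 2 or CBR-5884 library 2 (medians 0.02 and 0.01), and 1 positive and 7 negative without DMSO library 4 (median −0.07). Usp3, a deubiquitinase of H2A, had 105 and 111 TPM with CBR-5884 and 128.5 and 123 TPM with DMSO, with groups that did not overlap (log2 fold change −0.22, interval −0.41 to −0.02; limma adjusted p = 0.998). It was the 1 gene of the 8 at an unadjusted p under 0.05, against 3.66% of all genes. Mysm1, another H2A deubiquitinase, had 38.1 and 42.6 TPM with CBR-5884 and 40.9 and 51.1 TPM with DMSO, and Asxl3, a cofactor of Bap1, had 2.17 and 2.90 TPM with CBR-5884 and 1.82 and 1.69 TPM with DMSO. Bap1, the catalytic subunit of the main complex that opposes PRC1, was the most abundant at 155 and 152 TPM with CBR-5884 and 155 and 149 TPM with DMSO.

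Genes known as PRC1 targets were read in the same fit. Of 39 Hox genes 27 were below a mean of 1 TPM, and of 31 other typical targets (developmental transcription factors, with Cdkn2a and Cdkn2b) 21 were. Of the genes that could be tested, 12 and 10, 0 passed the limma threshold and 3 and 0 had an unadjusted p under 0.05, with medians of −0.27 and −0.10, and 8 in each list had a negative fold change, against 3.66% of all genes at that p and 52.8% negative. Of the 12 Hox genes tested, 10 belong to the Hoxb cluster, with 7 of the 8 negative ones and all 3 under that p. The Hox counts therefore describe mostly this cluster. Pax7 and Cdkn2b had the smallest p in the list of other targets. Pax7, a muscle and neural crest factor, had 0.69 and 0.42 TPM with CBR-5884 and 1.26 and 2.01 TPM with DMSO. Cdkn2b, a cell cycle inhibitor beside Cdkn2a, had 7.97 and 7.57 TPM with CBR-5884 and 9.64 and 9.61 TPM with DMSO. Cdkn2a, the textbook target of Bmi1, had 152 and 130 TPM with CBR-5884 and 146 and 152 TPM with DMSO, so the groups overlapped. All 13 germ cell genes that PRC1.6 represses in mouse embryonic stem cells had at least 58.6 TPM in each library, and their median log2 fold change was 0.03, with 9 positive and 4 negative. Of these 0 passed the limma threshold, and 1, Stra8, had an unadjusted p under 0.05, against 3.66% of all genes. The 2 with the smallest p were Stra8, which starts meiosis, at 376 and 323 TPM with CBR-5884 and 476 and 399 TPM with DMSO (limma adjusted p = 0.998), and Sycp3, of the synaptonemal complex, at 196 and 192 TPM with CBR-5884 and 189 and 162 TPM with DMSO (limma adjusted p = 0.998).

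**Figure D4:**
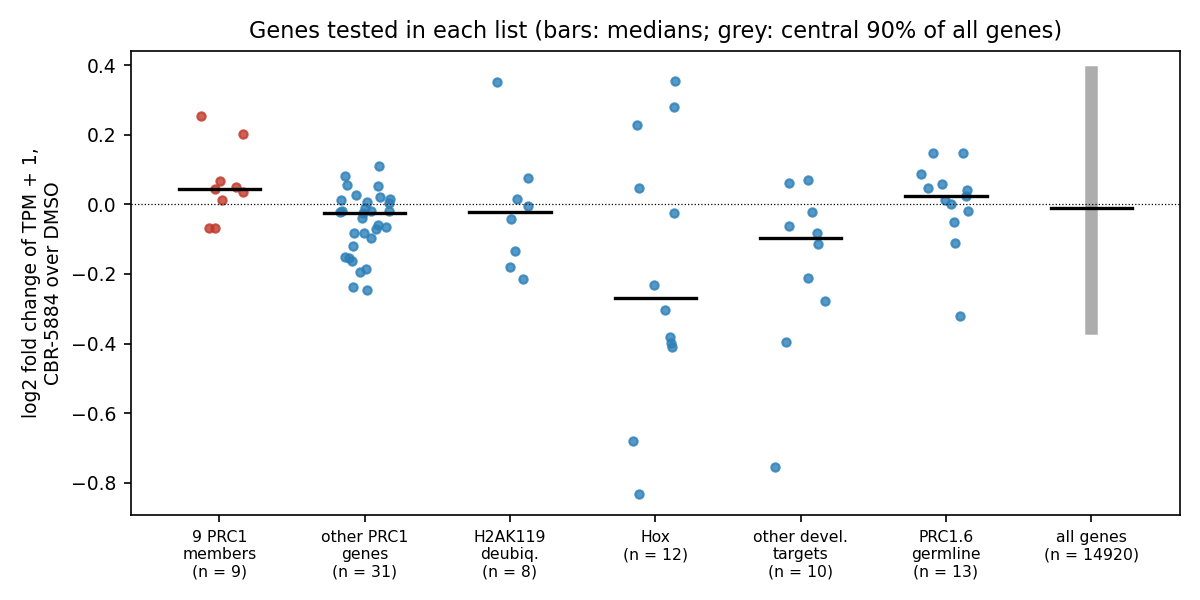
Log2 fold change of TPM + 1, CBR-5884 over DMSO, of the tested genes in each list, with black bars for medians and a grey bar for the central 90% of all 14920 genes (−0.36 to 0.38). The 9 members run from −0.07 to 0.26 and Hox genes reach down to −0.83. For the 7092 genes in the range of levels of the members the central 90% is narrower, −0.22 to 0.20, and Bmi1 (0.26) and Pcgf6 (0.20) lie just above it.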

How the data were processed

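RNA-seq libraries had been made from sorted germ cells with a TruSeq RNA kit from 100 ng of total RNA, per the labels' protocols. Fastp, kallisto and the build mm10 were used by the authors, per the submitters' processing notes, without versions or settings there. Whether counting used strand is not known. The deposited table gives 2 signal measures per gene and library, TPM and scaled reads per base, repeated on 469612 transcript lines, and 1 line per gene and library was kept. The deposited TPM signal had been rescaled per library, and neither measure is a count, so limma on log2(TPM + 1) was used and no count test. Read depth per gene is unknown from these values, so no counting interval is given and precision comes from the spread between libraries.

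The comparison used limma 3.58.1 (limma-trend, two-sided) in R 4.3.3, CBR-5884 minus DMSO, over the 14920 genes with a mean of at least 1 TPM, with Benjamini-Hochberg adjustment over all of them and 95% intervals. It was tested on simulated data with changes larger than those of the members. How often differences of the members' size would be called was not tested. A log2 fold change on log2(TPM + 1) understates changes of low genes. Table numbers 2 and 4 do not match the replicate numbers 1 and 2 of the labels, so libraries are known by condition and table number only. The labels do not say how testes were divided among cultures, so whether the libraries are independent is unknown. The p-values rest on the spread between these libraries, which limma pools over genes. The members, lists and naming rule were chosen with earlier results of these data known. Named beside the 9 members were the 3 smallest p and the 2 highest levels of the partner and deubiquitinase lists and the 2 smallest p of each target list; Cdkn2a, Pcgf5 and E2f6 were named after their values were seen. One symbol, Skp1a, was read as Skp1. Positions are from GENCODE M21 (GRCm38), 1-based. Shared 31-base words were found in its transcripts on either strand.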

Additional observations from a re-analysis of the deposited data

How the results depend on the processing

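The number of PRC1 members past the adjusted threshold was 0 in each of the 10 alternatives: a pseudocount of 0.1, no filter on low values, equal library totals, centring on the median gene, scaled reads per base, a replicate block and 4 fits without 1 library. It was also 0 for the partner and deubiquitinase lists. Over all genes, scaled reads per base called 1 gene lower, Hspa1b, and the other alternatives called 0. With the replicate block on the table number the count of calls was 0; the deviations of same-numbered libraries had a correlation of 0.2 across genes, but nothing in the labels says that the numbers pair the cultures. With 1 library left out the remaining library of that group was assumed to vary like the other group. The direction of Bmi1, Pcgf6, Cbx2 and Scmh1 stayed in all 10 alternatives. It turned in at least 1 fit without a library for Ring1 (range −0.10 to 0.23), Rnf2 (−0.063 to 0.13), Cbx7 (−0.080 to 0.17), Cbx8 (−0.11 to 0.21), Scml2 (−0.044 to 0.067), Skp1 (−0.13 to 0.16), Cbx3 (−0.080 to 0.10) and Bap1 (−0.013 to 0.045). Centring on the median gene also turned Scml2, to −0.00089, and Cbx3, to −0.00023. The causes were not tested. From scaled reads per base, which weight genes by length, the Bmi1 share of the PCGF genes differed by 1.47 percentage points between CBR-5884 and DMSO, against 3.38 from TPM, and the Pcgf6 share by 1.59, against 0.84 from TPM. From TPM without DMSO library 4 the Bmi1 share differed by 1.85. Without 1 library at a time, between 4 and 6 of the 9 members had a positive fold change, against 7 with all libraries.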

Other observations

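Among the Hox genes, which PRC1 is known to keep silent outside their domains, the Hoxb cluster stood apart in level. All 10 Hoxb genes had a mean of at least 1 TPM, with single values from 0.93 to 41.8 TPM, while 0 of 11 Hoxa, 1 of 9 Hoxc and 1 of 9 Hoxd genes did. The cluster was singled out after its values were seen. Its genes lie together on chromosome 11, so the counts describe 1 cluster and not separate genes. The summed Hoxb level was 71.1 and 78.0 TPM in CBR-5884 libraries and 111.1 and 87.4 TPM in DMSO libraries. Of the 10 genes 7 had a negative fold change, against 52.8% of all genes, 6 lay below the DMSO values without overlap (17.7% of all genes) and 1 above (13.6%), and 0 passed the limma threshold after adjustment over all genes, while 3 had an unadjusted p under 0.05, against 3.66% of all genes. Hoxb8 had 22.3 and 21.0 TPM with CBR-5884 and 41.8 and 29.8 TPM with DMSO (log2 fold change −0.68, limma adjusted p = 0.998), and leaving out DMSO library 2 gave −0.44, while leaving out DMSO library 4 gave −0.92. Hoxb5 had 2.39 and 3.16 TPM with CBR-5884 and 5.90 and 5.49 TPM with DMSO (log2 fold change −0.83, limma adjusted p = 0.998). In both genes each CBR-5884 value was below each DMSO value. The cells that carry this RNA were not identified.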
